A study of Mus musculus with 2 samples.

Results

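The type 1 program of lung γδ T cells was described through 6 genes, Ifng, Tbx21, Eomes, Runx3, Il12rb2 and Cxcr3, which were picked by symbol from the 32285 genes of the deposited count tables. All 6 were present in the tables. They were followed in 2 single-cell libraries, 1 per group, from uninfected mice aged 5 to 7 weeks. The WT library held lung γδ T cells that lacked the Vγ1 chain of the T cell receptor in the sort, and its mice were C57BL/6NCrl. In the KO library were Vγ1+ lung γδ T cells of the strain labelled B6.Cg-Tcrgtm1lku(B6.Vg4-/-Vg6-/-), which lacks both the Vγ4 and the Vγ6 chain. The number of mice behind each library is not given in the sources used here. Because the sort, the strain and the library differ together, their parts in any difference between the libraries cannot be told apart.

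Receptor transcripts give a check of both labels. They were counted as unique molecular identifiers (UMIs), each standing for 1 captured RNA molecule. Tcrg-V6 had 2906 UMIs in the WT library and 0 in the KO library, where 0 of 5806 cells reduced to 2000 UMIs each sets a limit of 0.0517% on its share. Tcrg-V1 had 5449 UMIs in the KO library. It also had 251 UMIs in the WT library, in 4.8% of its cells at 2000 UMIs per cell, although that sort lacked the Vγ1 chain. Tcrg-V4 had 715 UMIs in the WT library but also 1291 in the KO library, in 8.51% of its cells at 2000 UMIs per cell, which goes against that library's label. It is therefore called the KO-labelled library, and every direction between the libraries rests on the labels. The study reports no Tcrg-V4 expression in the KO cells of its IL-17-type clusters. Whether these transcripts give a chain on the cell surface was not tested.

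Type 1 lymphocytes are defined by interferon-γ, the cytokine that Ifng encodes. In γδ T cells, the choice between interferon-γ and IL-17 is largely made in the thymus. The surface receptor Cd27 marks cells on the interferon-γ side, whereas many Vγ4 and most Vγ6 cells of the lung are known as IL-17 producers. Il12rb2 encodes the inducible chain of the IL-12 receptor, which signals through STAT4. Tbx21 (T-bet) and Eomes encode related T-box transcription factors that activate Ifng, and Runx3 encodes a runt-domain factor that works together with T-bet. Cxcr3, a T-bet target, encodes a receptor for the chemokines that interferon-γ induces. Ly6c2 encodes Ly6C, a surface protein found on a memory-like part of the interferon-γ side and also on monocytes.

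The promoter windows of the 6 genes were read from the RefSeq promoter table of GRCm38.p6, as the 250 bases before each start site. They are shown for Ifng, Il12rb2 and Cxcr3, because these genes differed most between the cell groups described below and each window holds a searched motif. Searched on both strands were the T-box half-site AGGTGTGA, the T-box core GGTGTG that lies inside it, the RUNX core TGTGGT and the STAT (GAS) motif TTCNNNGAA. Capitals mark the matches, the STAT motif in Ifng and Il12rb2 and the RUNX core, read on the other strand as ACCACA, in Cxcr3.
Ifng, chr10:118440796-118441045, plus strand: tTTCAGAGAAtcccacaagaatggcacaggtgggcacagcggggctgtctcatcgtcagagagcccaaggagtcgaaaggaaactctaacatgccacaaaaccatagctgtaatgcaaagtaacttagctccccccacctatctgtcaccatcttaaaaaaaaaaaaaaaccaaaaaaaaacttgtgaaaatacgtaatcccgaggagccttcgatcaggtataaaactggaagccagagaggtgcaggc
Il12rb2, chr6:67376189-67376438, minus strand: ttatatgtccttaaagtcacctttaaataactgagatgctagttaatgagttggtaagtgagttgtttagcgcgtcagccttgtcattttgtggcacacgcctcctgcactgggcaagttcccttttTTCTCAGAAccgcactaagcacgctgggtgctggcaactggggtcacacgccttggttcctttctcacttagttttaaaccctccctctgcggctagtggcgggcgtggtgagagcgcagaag
Cxcr3, chrX:101734148-101734397, minus strand: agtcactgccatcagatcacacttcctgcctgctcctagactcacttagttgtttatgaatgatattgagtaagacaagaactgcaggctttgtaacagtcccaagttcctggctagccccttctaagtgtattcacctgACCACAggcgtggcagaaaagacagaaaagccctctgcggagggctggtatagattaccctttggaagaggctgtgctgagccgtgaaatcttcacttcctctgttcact

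The STAT motif began 249 bases before the Ifng start and 123 bases before the Il12rb2 start. The RUNX core began 110 bases before the RefSeq start of Cxcr3, and at 134 and 126 bases before the first of the Runx3 starts. No searched motif was found in the windows of Tbx21 and Eomes. Among all 32851 promoter windows of this length, 7.02% held the STAT motif, 14.0% the RUNX core, 16.3% the T-box core and 1.12% the T-box half-site, so a match in a window is a common event for all but the half-site, which none of the members held. In the GENCODE annotation of GRCm38, Ifng lies at chr10:118441046-118445892 (plus strand), Tbx21 at chr11:97098071-97115331 (minus), Eomes at chr9:118478212-118486132 (plus), Runx3 at chr4:135120652-135177990 (plus), Il12rb2 at chr6:67291318-67376188 (minus) and Cxcr3 at chrX:101731535-101734269 (minus), whose start lies inside the window printed above. By the GENCODE annotation the marked RUNX core of Cxcr3 lies inside the gene, not before its start. All of these genes are annotated as protein-coding.

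The filter of the study's methods left 2505 WT cells with 8971636 UMIs and 6634 KO-labelled cells with 25908306 UMIs, more cells than the study states for either library. The median depth was 3288 UMIs per WT cell and 3521 per KO-labelled cell. At least 1 UMI of Cd3d, Cd3e, Cd3g or Trdc was read in 90.9% of the WT cells, and in the KO-labelled library in 96.5%. This checks for T cells only, because αβ T cells carry the Cd3 genes too, and it cannot test the γδ label. A list of 6 αβ T cell genes, Trac among them, summed to 7953 UMIs in the WT and 31667 in the KO-labelled library. Whether these UMIs came from αβ T cells was not tested. Y-linked genes, which mark male cells, had UMIs in 24.5% of the WT cells against 0.467% of the KO-labelled ones, and the study used mice of both sexes. The libraries shared 23 cell barcodes. With 1 library per group there was no replicate and no test could be run. All intervals below are exact 95% intervals that cover counting error only, and PCR and capture add error that they do not show. Intervals of CPM and of CPM ratios also treat the UMIs of a cell as independent, so they leave out the spread between cells.

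Levels are given as UMIs summed over the cells of a group and as counts scaled to the summed UMIs of that group (CPM). Shares are the percentage of cells with at least 1 UMI of a gene after each cell was reduced at random to 2000 UMIs (thinned), which left 2125 WT and 5806 KO-labelled cells. Il12rb2, the IL-12 receptor chain, had 776 UMIs (86.5 CPM) in the WT and 3065 UMIs (118 CPM) in the KO-labelled library, and its thinned share was 10.9% and 16.6%. Tbx21 had 229 UMIs (25.5 CPM) and 811 UMIs (31.3 CPM), with a share of 4.75% and 5.10%. Eomes was read least, with 93 UMIs (10.4 CPM) in the WT and 175 UMIs (6.75 CPM) in the KO-labelled library and shares of 1.22% and 1.21%. The 2 T-box factors thus moved in opposite directions between the libraries by CPM, while their thinned shares overlapped. Runx3 had 673 UMIs (75.0 CPM) and 1614 UMIs (62.3 CPM), in 11.0% and 10.9% of cells. Ifng, the product of the program, had 194 UMIs (21.6 CPM) in the WT and 632 UMIs (24.4 CPM) in the KO-labelled library, with shares of 2.64% (2.0% to 3.41%) and 3.72% (3.25% to 4.24%). Cxcr3 had 569 UMIs (63.4 CPM) and 2130 UMIs (82.2 CPM), in 10.1% and 12.8% of cells. Without thinning, the WT and KO-labelled shares were 16.6% and 25.6% for Il12rb2, 4.23% and 5.53% for Ifng, and 14.4% and 18.3% for Cxcr3.

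The libraries as a whole were compared first. Taken as KO-labelled over WT, the log2 CPM ratio was 0.45 (0.34 to 0.57) for Il12rb2, 0.37 (0.24 to 0.51) for Cxcr3 and 0.29 (0.08 to 0.51) for Tbx21. For Ifng it was 0.17 (-0.06 to 0.41), an interval that held 0. Runx3 and Eomes had more CPM in the WT library, and their ratios were -0.27 (-0.40 to -0.14) and -0.62 (-0.99 to -0.24). None of the 6 members reached a 2-fold difference (0 of 6), where 2.94% of 12275 genes with at least 30 UMIs were at least 2-fold higher and 7.09% at least 2-fold lower in the KO-labelled library. Among cells with an Xist UMI and no Y-linked UMI, 859 WT and 3220 KO-labelled cells, the ratio was -1.31 for Eomes and -0.55 for Ifng. Among cells at or below the median share of handling-stress transcripts, it was -0.33 for Tbx21.

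The background of each share was read from cells that should lack T cell transcripts, defined by at least 5 UMIs of B and myeloid genes and none of the Cd3 chains or Trdc. There were 62 such cells in the WT (median 2475.5 UMIs) and 32 in the KO-labelled library (median 2120.5 UMIs). Ifng, Eomes and Cxcr3 were read in 0 of 62 and 0 of 32 of them, which allows shares of up to 4.84% and 9.38%. Tbx21 and Il12rb2 were each read in 2 of 62 WT cells (3.23%), and in 0 and 1 of 32 KO-labelled cells. Without thinning, Runx3 was read in 13 of 62 of these WT cells (21.0%) against 20.6% of the other WT cells. Its WT share thus did not stand above this background. In the KO-labelled library Runx3 was read in 1 of 32 (3.13%) against 19.7% of the other cells. Whether B and myeloid cells carry Runx3, Tbx21 or Il12rb2 of their own was not tested, so their UMIs need not be stray transcripts. After thinning, 40 WT and 17 KO-labelled background cells remained. Among the WT ones, Tbx21 was read in 2 (5.0%), Il12rb2 in 1 (2.5%) and Runx3 in 6 (15.0%), so the WT shares of Tbx21 and Runx3 did not stand above the thinned background either. A count of 0 allows up to 7.5% of the 40 and 17.6% of the 17 cells, above the WT and KO-labelled shares of Ifng and Eomes.

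The WT sort held several γ chains, and Il12rb2 and Cxcr3 divided between them. Cells were grouped by the Tcrg-V gene of which they carried UMIs, as cells with 1 such gene only, cells with 2 or more, and cells with none. The WT library gave 520 Tcrg-V6-only, 410 Tcrg-V4-only and 84 Tcrg-V1-only cells, and in 43.7% of its cells no Tcrg-V UMI was read. The few Tcrg-V1-only cells carried Il12rb2 in 22.8% and Eomes in 5.06% of 79 thinned cells, and the cells without a Tcrg-V UMI in 16.3% and 1.38%. Il12rb2 was read in 13.0% (9.80% to 16.8%) of Tcrg-V4-only but in 1.24% (0.457% to 2.68%) of Tcrg-V6-only cells, at 156 and 32 UMIs before thinning. The log2 ratio of CPM, Tcrg-V4-only over Tcrg-V6-only, was 2.61 (2.05 to 3.20). Cxcr3 went the other way, with 206 UMIs and a share of 15.7% (12.6% to 19.3%) in Tcrg-V6-only against 60 UMIs and 5.71% (3.62% to 8.52%) in Tcrg-V4-only cells, a log2 ratio of -1.46 (-1.90 to -1.04). The IL-12 receptor chain and the type 1 chemokine receptor thus stood on opposite sides in these groups.

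Ifng was read in 12 of the 385 thinned Tcrg-V4-only cells (3.12%) and in 2 of the 483 thinned Tcrg-V6-only cells (0.414%), with 29 and 13 UMIs and a log2 ratio of 1.48 (0.49 to 2.55). Eomes had 21 UMIs in Tcrg-V4-only and 2 in Tcrg-V6-only cells, and was read in 0 of 483 thinned Tcrg-V6-only cells, which allows a share of up to 0.621%. Its ratio, 3.71 (1.68 to 6.85), was not counted because fewer than 30 UMIs were read in all. Tbx21 had 35 and 41 UMIs and a log2 ratio of 0.09 (-0.60 to 0.78), which was 1.23 among cells with Xist and no Y-linked UMI and -0.50 when groups were set from thinned UMIs. In Cd27-Ly6c2- cells alone it had 3 UMIs (5.49 CPM) with Tcrg-V4 and 39 UMIs (22.2 CPM) with Tcrg-V6. Ifng had 1 UMI (1.83 CPM) and 8 UMIs (4.55 CPM) in these cells, the other direction from the whole groups. Il12rb2 had 11 UMIs (20.1 CPM) and 9 UMIs (5.12 CPM) there, and Cxcr3 had 8 UMIs (14.6 CPM) and 194 UMIs (110 CPM). The part of the Cd27 and Ly6c2 groups in the ratios was not tested. Over all Tcrg-V4-only and Tcrg-V6-only cells, Runx3 had 94 and 157 UMIs, a log2 ratio of -0.42 (-0.80 to -0.04). Of the 5 members with enough UMIs, 2 were at least 2-fold higher in Tcrg-V4-only cells and 1 at least 2-fold lower, beside 5.29% and 5.15% of the 8133 genes compared. The myeloid list stood at 527 CPM in Tcrg-V4-only and 313 CPM in Tcrg-V6-only cells and the NK and ILC1 list at 38.5 and 6.06 CPM. With cells carrying an NK or ILC1 transcript left out, the count of members past 2-fold was also 3.

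**Figure D1:**
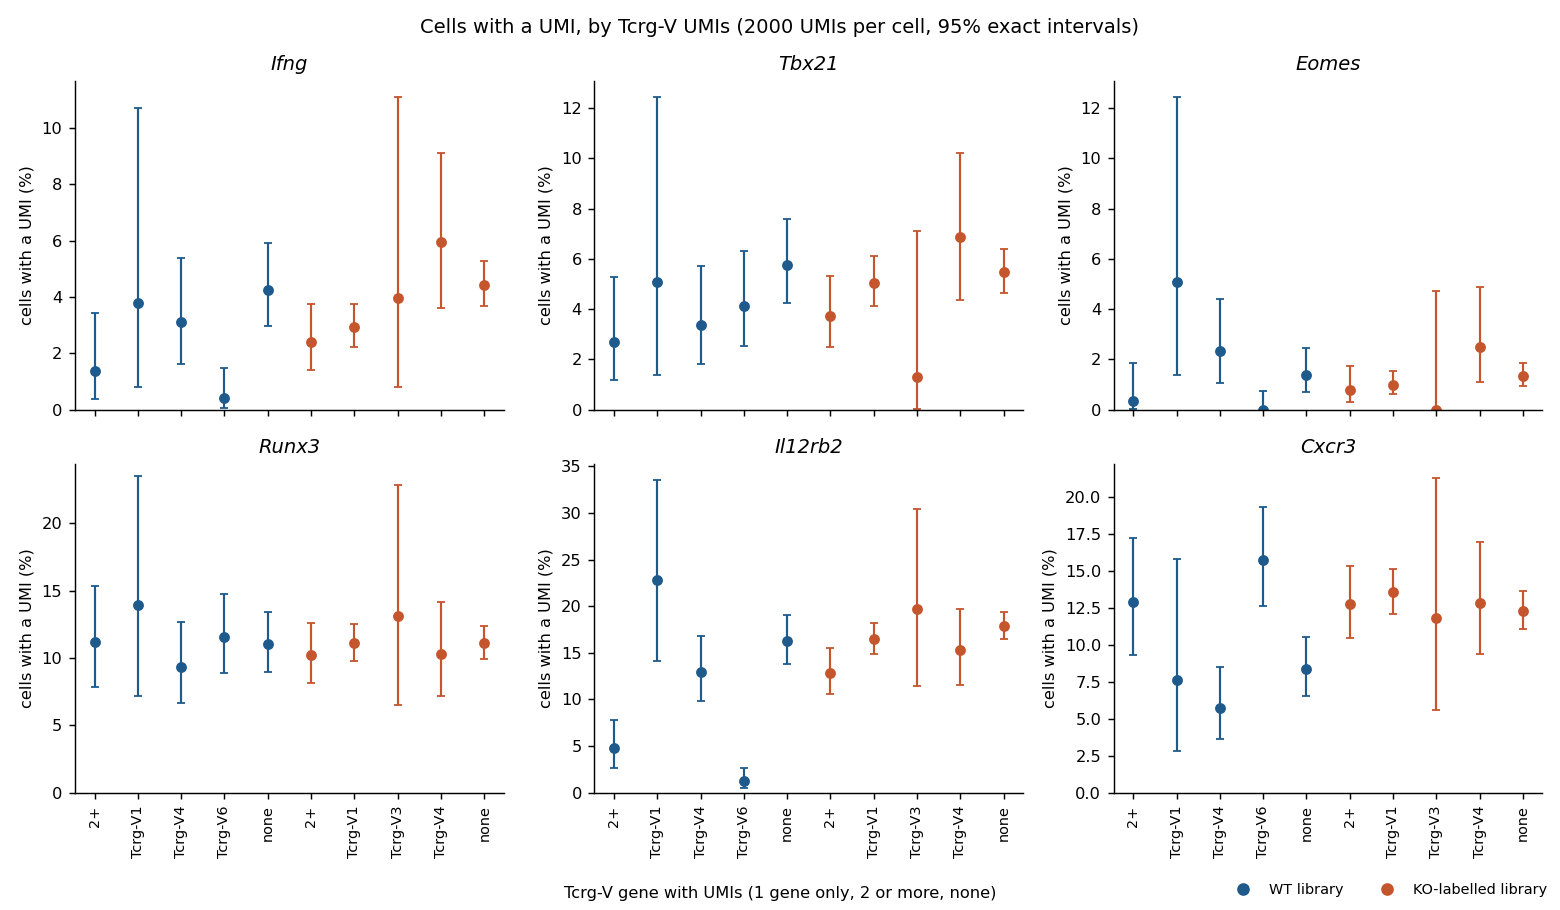
Thinned share of cells with a UMI (y axis, percent, exact 95% intervals) of each member by the Tcrg-V gene read in the cell (x axis), for the WT (blue) and KO-labelled (orange) libraries. In WT cells Il12rb2 is at 1.24% with Tcrg-V6 and 13.0% with Tcrg-V4, Cxcr3 at 15.7% and 5.71%, and the Runx3 intervals overlap in all groups.

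In the KO-labelled library Tcrg-V1 was the chain read most. Its 2128 Tcrg-V1-only cells carried Il12rb2 in 16.5%, Cxcr3 in 13.6%, Tbx21 in 5.05%, Ifng in 2.92% and Eomes in 0.991% of cells. The 364 cells of this library in which Tcrg-V4 alone was read, against the label, carried Il12rb2 in 15.3%, Cxcr3 in 12.8%, Tbx21 in 6.88%, Ifng in 5.94% and Eomes in 2.50% of cells. The intervals of these thinned shares overlapped for all 6 members, narrowly for Ifng, at 2.23% to 3.76% with Tcrg-V1 and 3.61% to 9.12% with Tcrg-V4. By CPM, Ifng stood at 38.7 (29.2 to 50.2) with Tcrg-V4 and 15.1 (12.7 to 17.8) with Tcrg-V1, and Eomes at 13.1 (7.90 to 20.5) and 5.96 (4.50 to 7.74), so that the intervals of both were apart. These intervals leave out the spread between cells, and 26 of the 56 Ifng UMIs with Tcrg-V4 came from 8 Cd27-Ly6c2- cells. Cells without a Tcrg-V UMI lay in the same range, with Il12rb2 in 17.9% and Ifng in 4.43% of 2597 thinned cells. Set against the WT Tcrg-V4-only cells, KO-labelled Tcrg-V1-only cells had a log2 ratio of 1.28 (0.90 to 1.68) for Cxcr3, with 866 and 60 UMIs, and of -1.15 (-1.90 to -0.36) for Eomes, with 56 and 21 UMIs. These were 1 member at least 2-fold higher and 1 at least 2-fold lower, beside 4.41% and 3.54% of 10227 genes. The Eomes ratio was -0.47 without cells carrying an NK or ILC1 transcript and -0.36 when groups were set from thinned UMIs. The Cxcr3 ratio was 0.73 among cells at or below the median of handling-stress transcripts. For Il12rb2, Tbx21, Ifng and Runx3 the ratios were 0.16, 0.48, -0.28 and 0.08, and each interval held 0. That of Ifng was -1.42 among cells with Xist and no Y-linked UMI and -1.08 with at least 2 UMIs asked of a positive cell. That of Tbx21 was 1.06 with groups from thinned UMIs and -0.26 among cells at or below the median of handling-stress transcripts.

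WT cells also differed by the δ chain, with Trav13-4-dv7 cells high and Trdv5 cells low for most members. Cells were grouped in the same way by the δ variable gene read, where the 4 similar Trav15-dv6 genes were counted together. WT cells with Trav13-4-dv7 alone (243 cells) carried Il12rb2 in 27.1% (21.4% to 33.3%), Cxcr3 in 14.8% (10.51% to 20.1%) and Ifng in 9.17% (5.77% to 13.7%) of cells. WT cells with Trdv5 alone (379 cells) carried them in 7.20% (4.72% to 10.45%), 2.88% (1.39% to 5.24%) and 0.865% (0.179% to 2.51%). WT cells with Trdv4 alone (701 cells), the δ chain read in 440 of the 520 Tcrg-V6-only cells, were again low for Il12rb2 at 1.24% and Ifng at 0.311% but high for Cxcr3 at 17.4%. Eomes was read in 0 of 643 thinned Trdv4-only cells, which allows up to 0.467%.

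As a ratio of CPM, WT Trav13-4-dv7-only over WT Trdv5-only cells gave 3.22 (2.14 to 4.50) for Ifng, with 55 and 8 UMIs. Cxcr3 gave 2.68 (1.93 to 3.50), with 85 and 18 UMIs. Il12rb2 gave 2.06 (1.66 to 2.48), with 210 and 68 UMIs, and Tbx21 gave 1.64 (0.78 to 2.55), with 39 and 17 UMIs. All 4 of these genes were thus higher with Trav13-4-dv7, 4 of the 5 members with at least 30 UMIs, beside 2.21% of 6963 genes. Runx3, with 71 UMIs in each group, gave 0.44 (-0.06 to 0.93). This pair of groups was chosen after the shares had been seen, so the ratios describe a known difference. The same order was found among cells with Tcrg-V4 alone, where Ifng had 14 UMIs in 76 Trav13-4-dv7-only and 0 in 113 Trdv5-only cells. Cxcr3 had 24 and 1 UMIs in these cells, and Il12rb2 was read in 29.7% (19.7% to 41.5%) and 5.45% (2.03% to 11.5%) of them.

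The δ chains of the KO-labelled library spanned a narrower range of Il12rb2 and Ifng shares. Il12rb2 was read in 12.7% to 19.0% of cells over the 7 groups with a single δ gene, and Ifng in 2.21% to 6.33%. Eomes was highest with Trav21-dv12 alone, at 4.17% (1.54% to 8.85%) of 144 thinned cells, an interval that overlapped those of the other groups with a single δ gene. By CPM it stood apart, at 36.2 (22.7 to 54.9) from 22 UMIs in 178 cells, where the other 6 groups lay between 0 and 6.95 CPM with upper bounds of at most 11.97 CPM. KO-labelled cells with Trav13-4-dv7 alone (246 cells) had 9 Ifng UMIs against 55 in the WT cells of that chain, a log2 ratio of -2.64 (-3.85 to -1.61). For Il12rb2 the ratio was -1.0 (-1.35 to -0.66), whereas Tbx21 and Cxcr3 gave -0.23 (-0.94 to 0.47) and 0.16 (-0.28 to 0.60). Thus 2 of the 5 members with enough UMIs were at least 2-fold lower, beside 2.65% of 6593 genes, again in a pair of groups chosen after the shares had been seen. Il12rb2 was at -0.85 without cells carrying an NK or ILC1 transcript, and Ifng at -2.53.

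**Figure D2:**
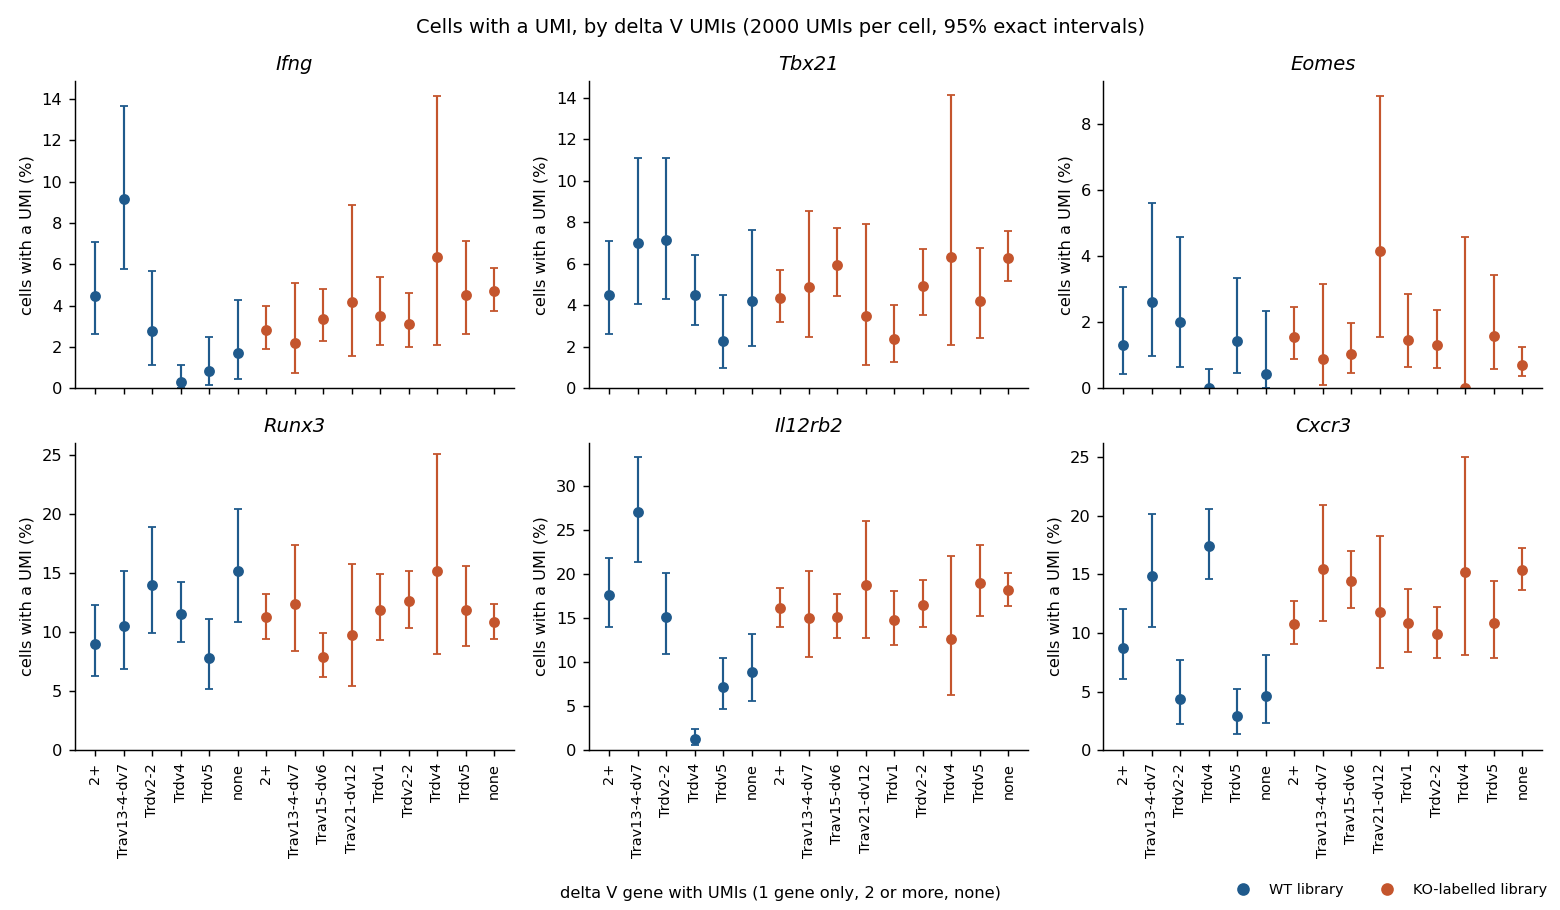
Thinned share of cells with a UMI (y axis, percent, exact 95% intervals) of each member by the δ variable gene read in the cell (x axis), for the WT (blue) and KO-labelled (orange) libraries. WT cells spread widely, with Il12rb2 from 1.24% with Trdv4 to 27.1% with Trav13-4-dv7 and Ifng from 0.311% to 9.17%, while the KO-labelled groups span 12.7% to 19.0% and 2.21% to 6.33%.

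In both libraries, the cells with Ly6c2 held the highest shares of Ifng, Tbx21, Il12rb2 and Cxcr3. Cells were divided by at least 1 UMI of Cd27 and of Ly6c2. The WT library held 325 Cd27+Ly6c2+, 556 Cd27+Ly6c2-, 133 Cd27-Ly6c2+ and 1491 Cd27-Ly6c2- cells. The KO-labelled groups held 1055, 2686, 562 and 2331 cells. Ly6c1, whose sequence is nearly that of Ly6c2, had 120 UMIs in the WT and 704 in the KO-labelled library against 2966 and 9151 of Ly6c2, and how reads shared by both were counted cannot be told from the files.

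Il12rb2, the receptor chain, was read in 32.5% of WT Cd27+Ly6c2+ cells, 11.2% of Cd27+Ly6c2-, 30.8% of Cd27-Ly6c2+ and 2.95% of Cd27-Ly6c2- cells. The KO-labelled shares were 32.2%, 12.6%, 31.7% and 9.14%. Both libraries therefore gave nearly the same Il12rb2 share in each group except the Cd27-Ly6c2- cells, where the intervals, 2.06% to 4.07% and 7.84% to 10.6%, did not overlap. Ifng was read in 7.26%, 1.80%, 14.2% and 0.589% of the WT groups in the same order. In the KO-labelled groups it was read in 7.05%, 1.60%, 12.6% and 2.30% of cells. The thinned share of Ifng was thus highest in Ly6c2+ cells without a Cd27 UMI, where 66 WT UMIs came from 133 cells and 176 KO-labelled UMIs from 562 cells. Set against Cd27+Ly6c2+ cells, the KO-labelled intervals were apart, at 9.80% to 15.8% and 5.55% to 8.79%. The WT intervals overlapped, at 8.47% to 21.7% and 4.65% to 10.7%.

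Tbx21, like Ifng, was highest in Cd27-Ly6c2+ and next highest in Cd27+Ly6c2+ cells of both libraries. Its shares were 6.62%, 3.0%, 15.8% and 3.87% of the WT groups and 7.93%, 3.52%, 13.4% and 3.36% of the KO-labelled groups. Eomes had its highest KO-labelled share in Cd27+Ly6c2+ cells instead, at 2.54% (1.67% to 3.71%), and in Cd27-Ly6c2+ cells it was 1.2% (0.441% to 2.59%). In the WT library the groups stood in the same order for Eomes as for Ifng, with Eomes at 2.84%, 1.80%, 4.17% and 0.253%. Its interval was 1.37% to 9.46% for the 120 thinned Cd27-Ly6c2+ cells. Cxcr3 was read in 16.1%, 4.20%, 16.7% and 10.4% of the WT groups and 23.5%, 9.20%, 22.8% and 8.97% of the KO-labelled groups. Runx3 lay between 9.46% and 11.6% in 7 of the 8 groups and at 20.0% (13.3% to 28.3%) in WT Cd27-Ly6c2+ cells. No other member stood so level across these groups of the KO-labelled library. Without thinning, Ifng was read in 16.6%, 2.34%, 16.5% and 1.14% of the WT groups, whose median depths were 4485, 3355, 3360 and 3036 UMIs. In the KO-labelled groups it was then 12.2%, 2.53%, 17.3% and 3.13%, at median depths of 3842, 3862.5, 3340.5 and 3053 UMIs.

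**Figure D3:**
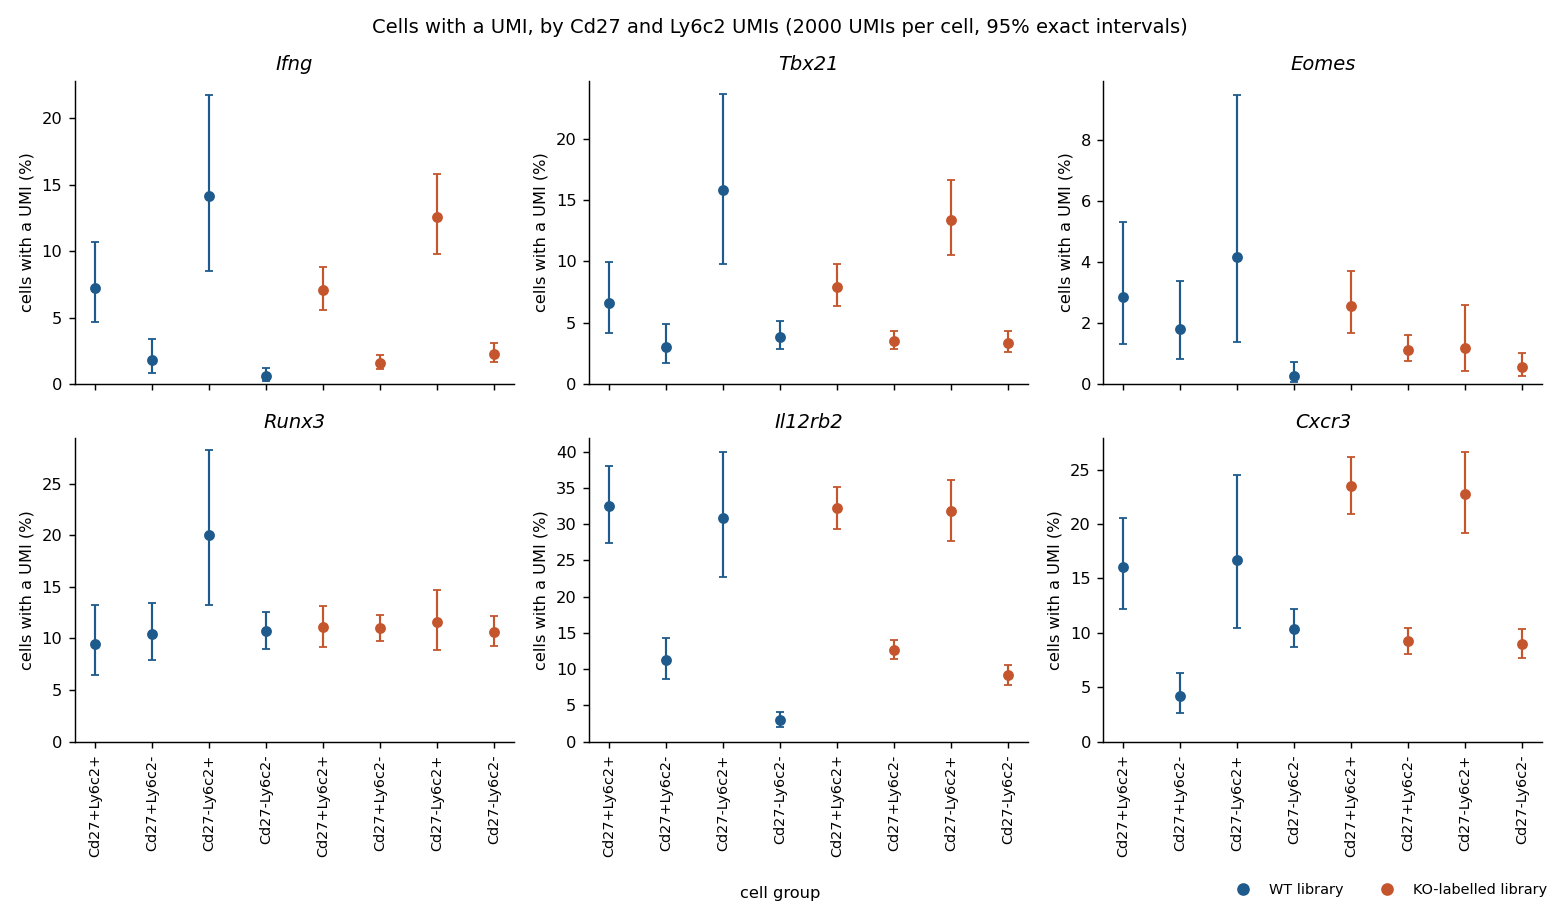
Thinned share of cells with a UMI (y axis, percent, exact 95% intervals) of each member in the 4 groups made by Cd27 and Ly6c2 UMIs (x axis), for the WT (blue) and KO-labelled (orange) libraries. Ifng, Tbx21 and Il12rb2 are higher in both Ly6c2+ groups of each library, as for Il12rb2 with 32.5% and 30.8% against 11.2% and 2.95% in WT cells, while Runx3 lies between 9.46% and 11.6% in all but the WT Cd27-Ly6c2+ cells, at 20.0%.

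Within Cd27+ cells, Ly6c2+ over Ly6c2- cells gave a log2 ratio for Ifng of 2.74 (1.95 to 3.62) in the WT library, with 80 and 16 UMIs. KO-labelled cells gave 2.07 (1.73 to 2.42), with 194 and 110 UMIs. Il12rb2 gave 1.59 (1.32 to 1.87) and 1.29 (1.16 to 1.41), and Tbx21 gave 1.49 (0.83 to 2.18) and 1.54 (1.27 to 1.81). The receptor, the regulator and the cytokine of the program were thus all more than 2-fold higher with Ly6c2 in each library. Cxcr3 gave 1.97 (1.5 to 2.47) in the WT and 0.94 (0.78 to 1.09) in the KO-labelled library, and Eomes gave 1.04 (0.29 to 1.81) and 0.93 (0.42 to 1.44). Runx3 gave 0.34 (-0.01 to 0.68) and 0.09 (-0.11 to 0.28). In all, 5 of 6 members were at least 2-fold higher in the WT library, beside 1.83% of 8367 genes, and 3 of 6 in the KO-labelled library, beside 1.24% of 10795 genes. The median log2 ratio of all genes was -0.13 in the WT library, so the members lay further above the other genes than above 0. Among cells at or below the median of handling-stress transcripts, the WT ratios of Il12rb2 and Eomes were 0.80 and 0.71. With at least 2 UMIs asked of a positive cell, those of Tbx21 and Eomes were 0.68 and 0.13.

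The same division within Cd27- cells was added after the shares had been seen. Ifng gave a log2 ratio of 4.22 (3.59 to 4.88) in the WT library, with 66 and 32 UMIs, and of 2.12 (1.80 to 2.44) in the KO-labelled library, with 176 and 152 UMIs. Il12rb2 gave 2.89 (2.52 to 3.25) and 1.61 (1.43 to 1.79), and Tbx21 gave 2.30 (1.76 to 2.82) and 1.93 (1.61 to 2.24). Cxcr3 gave 0.49 (0.03 to 0.92) and 1.24 (1.03 to 1.45), and Runx3 gave 0.75 (0.33 to 1.15) and 0.08 (-0.21 to 0.35). Eomes had 17 and 10 UMIs in the WT groups, too few to count, and 10 and 30 in the KO-labelled groups, a ratio of 0.32 (-0.87 to 1.40). The count of members at least 2-fold higher was 3 of 5 in the WT library, beside 6.15% of 9112 genes, and 4 of 6 in the KO-labelled library, beside 1.69% of 10002 genes. The medians of all genes were -0.12 and -0.11.

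Transcripts of other cell types moved with Ly6c2 in all 4 of these comparisons. The 14 myeloid genes, 5 of them at 0, summed to 5129 CPM in WT Cd27-Ly6c2+ cells against 526 CPM in Cd27-Ly6c2- cells, and to between 164 and 839 CPM in the other 6 groups. The 6 NK and ILC1 genes summed to 265 CPM in WT Cd27-Ly6c2+ cells and to between 9.74 and 89.5 CPM in the other 7 groups. Among these, Ncr1, which defines NK cells and ILC1, had 11 UMIs in WT Cd27-Ly6c2+ cells and at most 6 in any other group. With cells carrying at least 5 B or myeloid UMIs left out, the WT ratios in Cd27- cells were 4.46 for Ifng, 2.65 for Tbx21 and 3.13 for Il12rb2. With cells that carried an NK or ILC1 transcript left out, 91 WT Cd27-Ly6c2+ cells remained, and the ratios were 3.87 for Ifng, 2.82 for Il12rb2 and 0.84 for Tbx21, so the 2-fold difference of Tbx21 ended. The same step in the KO-labelled library gave 1.80 for Ifng, 1.44 for Il12rb2 and 1.51 for Tbx21. Klrb1c and Klre1 of that list are also carried by some γδ T cells.

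In Cd27+ cells the myeloid list stood at 839 CPM with Ly6c2 and 256 CPM without it in the WT library, and at 237 and 164 CPM in the KO-labelled library. The NK and ILC1 list stood at 75.7 and 24.4 CPM in these WT cells and at 54.1 and 9.74 CPM in the KO-labelled ones. Among Cd27- cells of the KO-labelled library the lists were at 643 against 311 CPM and at 89.5 against 11.1 CPM. Both lists were thus higher with Ly6c2 in each library. Leaving out cells that carried an NK or ILC1 transcript, the Cd27+ ratios of WT cells were 4.34 for Ifng, 2.33 for Tbx21 and 1.49 for Il12rb2, and those of KO-labelled cells 1.96, 1.31 and 1.21. Leaving out cells with at least 5 B or myeloid UMIs instead, they were 2.74, 1.61 and 1.67 in WT and 2.09, 1.55 and 1.30 in KO-labelled cells. The WT Ifng ratios rest on few UMIs, as Cd27+Ly6c2- cells had 16 before either step.

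Cd27 alone, compared among cells without Ly6c2, did not order the members in 1 direction. In the WT library Eomes was higher in Cd27+ cells, with 26 and 10 UMIs and a log2 ratio of 2.48 (1.38 to 3.70). Il12rb2 was also higher, at 1.24 (0.90 to 1.57), while Cxcr3 was lower, at -1.59 (-2.05 to -1.15). Tbx21 gave -0.53 (-1.19 to 0.09), Runx3 -0.07 (-0.36 to 0.22) and Ifng 0.10 (-0.86 to 1.01). Without cells carrying an NK or ILC1 transcript, Tbx21 was at -1.22 and Ifng at -1.32, with 16 and 32 Ifng UMIs before that step. Among cells with Xist and no Y-linked UMI, Il12rb2 was at 0.57, and with at least 2 UMIs asked of a positive cell Cxcr3 was at -0.73. In the comparison as first made, 2 of 6 members were at least 2-fold higher, beside 3.91% of 9609 genes, and 1 of 6 at least 2-fold lower, beside 5.78%. The same step in KO-labelled cells gave 0.69 (0.06 to 1.35) for Eomes, 0.28 (0.13 to 0.43) for Il12rb2 and -0.05 (-0.22 to 0.11) for Cxcr3. Ifng alone passed 2-fold there, being lower in Cd27+ cells at -1.10 (-1.47 to -0.74), with 110 and 152 UMIs, which is 1 of 6 members beside 1.88% of 11103 genes. It lay between -0.97 and -0.44 without likely doublets, with groups from thinned UMIs, among cells at or below the median of handling-stress transcripts and among cells with Xist and no Y-linked UMI.

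The Cd27 and Ly6c2 groups were also compared within single γ chains. Among WT cells with Tcrg-V4 alone, Il12rb2 was read in 36.6% (26.2% to 48.0%) of Cd27+Ly6c2+, 7.69% (3.75% to 13.7%) of Cd27+Ly6c2- and 1.94% (0.401% to 5.55%) of Cd27-Ly6c2- cells. Cxcr3 in these groups was at 14.6%, 2.31% and 2.58%, and the intervals of the last 2 of these overlapped. The Cd27-Ly6c2- cells with Tcrg-V6 alone carried Cxcr3 in 15.9% (12.6% to 19.7%) of 446 thinned cells. Ifng had 21, 1 and 1 UMIs in the Tcrg-V4-only groups, from 82, 135 and 172 cells, and Tbx21 had 24, 3 and 3. In KO-labelled cells with Tcrg-V1 alone, Ifng was read in 6.04% of Cd27+Ly6c2+, 1.37% of Cd27+Ly6c2-, 13.2% of Cd27-Ly6c2+ and 1.17% of Cd27-Ly6c2- cells. In those with Tcrg-V4 alone, Ifng had 9 UMIs (31.2 CPM) in Cd27+Ly6c2+ and 12 UMIs (18.9 CPM) in Cd27+Ly6c2- cells. In their Cd27-Ly6c2- cells it had 26 UMIs (57.2 CPM), which came from 8 cells. By CPM this was the highest of these groups, but Cd27-Ly6c2+ cells with Tcrg-V4 alone were too few to form a group. By thinned share Cd27+Ly6c2+ cells stood above Cd27-Ly6c2- cells, at 9.84% (3.70% to 20.2%) against 6.93% (2.83% to 13.8%), with overlapping intervals.

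The libraries were also compared group by group, and members past 2-fold were found in both groups without Ly6c2. KO-labelled over WT, 0 of 6 members were at least 2-fold different in Cd27+Ly6c2+ cells, where 2.52% of 9241 genes were at least 2-fold lower. Il12rb2 gave -0.02 (-0.19 to 0.16) there and Ifng -0.30 (-0.69 to 0.09), and Eomes came closest to 2-fold at -1.0 (-1.60 to -0.38), with 60 and 40 UMIs. In Cd27-Ly6c2+ cells 0 of the 5 members with enough UMIs reached 2-fold, beside 5.41% of 7318 genes at least 2-fold higher and 5.02% lower. Runx3 gave -0.79 (-1.23 to -0.33) there, Ifng -0.53 (-0.95 to -0.10) and Cxcr3 0.69 (0.25 to 1.15), intervals that did not hold 0. Eomes had 10 UMIs in the KO-labelled and 17 in the WT cells of that group, although the KO-labelled cells were 562 and the WT cells 133. In Cd27+Ly6c2- cells Cxcr3 gave 1.46 (1.05 to 1.91), with 737 and 50 UMIs, as 1 of 6 members beside 2.83% of 10584 genes. In Cd27-Ly6c2- cells Ifng gave 1.57 (1.01 to 2.17), with 152 and 32 UMIs, and Il12rb2 gave 1.24 (0.97 to 1.52), with 545 and 144 UMIs, as 2 of 6 members beside 4.50% of 10527 genes. Among cells at or below the median of handling-stress transcripts these 2 ratios were 0.72 and 0.93, and that of Cxcr3 in Cd27+Ly6c2- cells was 0.99. Among Cd27-Ly6c2- cells, the 10 with most Ifng held 46.7% of the 152 KO-labelled and 78.1% of the 32 WT Ifng UMIs. Without cells carrying an NK or ILC1 transcript, Cd27+Ly6c2- cells gave 2.08 for Ifng, 1.32 for Tbx21 and 1.75 for Cxcr3, with 16 WT Ifng UMIs before that step.

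**Figure D4:**
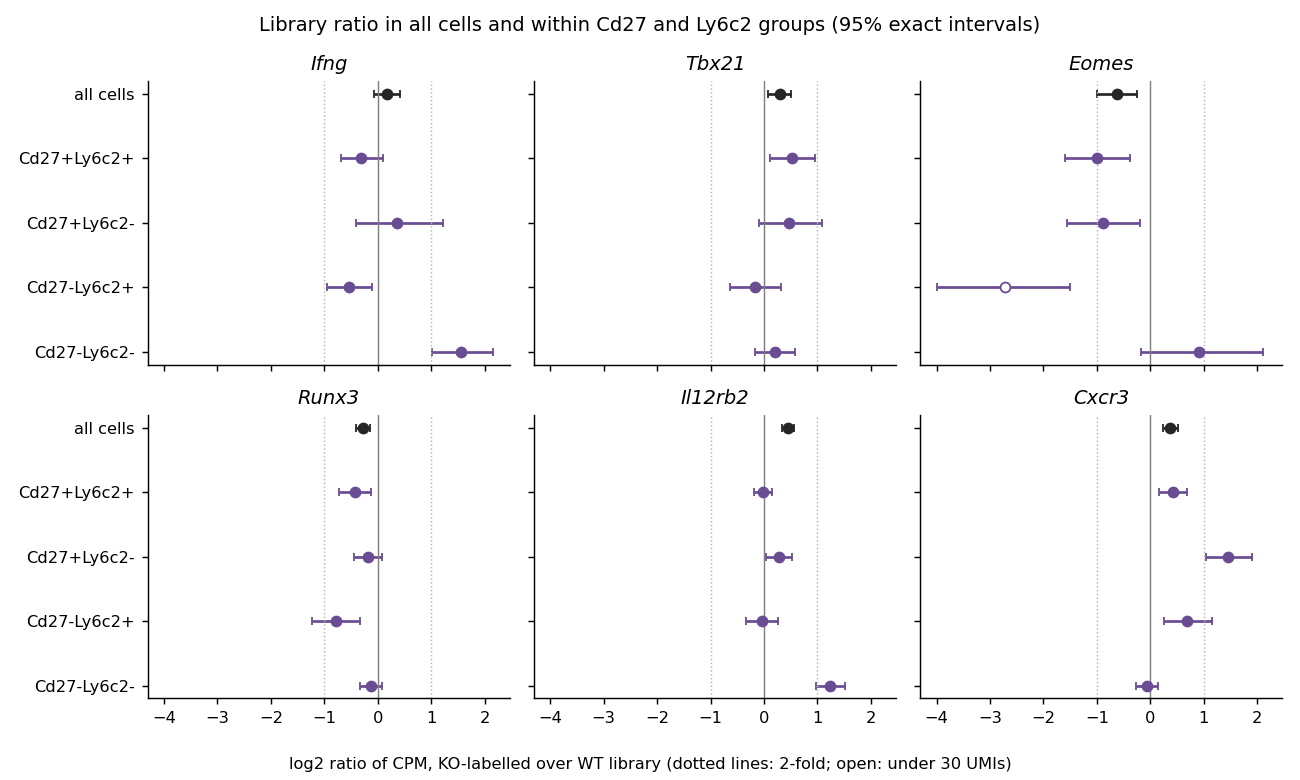
Difference of log2 CPM, KO-labelled minus WT (x axis, exact 95% intervals), of each member in all cells (black) and within the Cd27 and Ly6c2 groups (purple), with dotted lines at 2-fold and an open circle where fewer than 30 UMIs were read. In all cells no member reaches 2-fold, in Cd27-Ly6c2- cells Ifng is at 1.57 and Il12rb2 at 1.24, and in Cd27+Ly6c2- cells Cxcr3 is at 1.46.

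The number of Ly6c2 UMIs in a cell was also compared, with cells thinned to 2000 UMIs before Ly6c2 was counted. In the KO-labelled library Ifng was read in 2.07% of cells with 0 Ly6c2 UMIs, 5.92% with 1, 9.13% with 2 and 11.7% with 3 or more. Cxcr3 was read in 9.55%, 21.1%, 23.0% and 26.7% of these cells. Il12rb2 reached its level at once, with 12.1%, 31.8%, 36.1% and 32.1%, so that the cells with 1 Ly6c2 UMI already stood above those with 0. Cd27 was read before thinning in 41.4%, 44.2%, 49.6% and 47.0% of the same cells. In the WT library Ifng was at 0.966%, 9.71%, 12.2% and 10.6%, and Il12rb2 at 6.37%, 26.2%, 39.2% and 33.3%. Cd27 was read in 23.0%, 51.5%, 50% and 50.3% of these WT cells, so that it moved with Ly6c2 there, and its part in the WT steps was not tested.

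The list called handling-stress transcripts held 11 genes, Fos, Jun and Nr4a1 among them, which tissue dissociation raises. The study reads high Nur77, the product of Nr4a1, as a sign of T cell receptor signalling. Handling and activation of the cells cannot be told apart by this list. Ifng moved with these transcripts. Ifng was higher in the cells of each library above the median share of these transcripts than in the others, by a log2 difference of 0.86 (0.43 to 1.30) in WT and 1.39 (1.14 to 1.64) in KO-labelled cells. Il12rb2 was lower in those cells, at -1.12 (-1.34 to -0.89) and -0.44 (-0.55 to -0.34). Tbx21 had opposite signs in the libraries, at -0.77 (-1.18 to -0.37) and 0.57 (0.36 to 0.77). The stress list summed to 3753, 5433, 4457 and 7280 CPM in the WT Cd27+Ly6c2+, Cd27+Ly6c2-, Cd27-Ly6c2+ and Cd27-Ly6c2- cells and to 3871, 4079, 5160 and 6106 CPM in the KO-labelled cells. The part of this list in the Ifng values of these groups was not tested.

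Co-detection was measured as the cells with UMIs of both genes of a pair over the number expected from the product of their shares, in thinned cells. Ifng and Tbx21 were read together in 11 WT cells, 4.13 times (2.06 to 7.39) the expected number, and in 44 KO-labelled cells, 4.0 times (2.90 to 5.36). Tbx21 was read in 19.6% of Ifng+ and 4.35% of Ifng- WT cells, and in 20.4% and 4.51% of KO-labelled cells. T-bet is a direct activator of Ifng, and this pair had the highest ratio of all 15 pairs in the KO-labelled library. Among KO-labelled Tcrg-V1-only cells the pair was read in 11 cells, 3.69 times (1.84 to 6.60) the expected number.

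Il12rb2 was read in 42.9% of WT Ifng+ cells against 10.0% of the rest, a ratio of 3.94 (2.53 to 5.87). For KO-labelled cells it was 35.2% against 15.9%, a ratio of 2.11 (1.67 to 2.65). Tbx21 with Il12rb2 gave 2.73 (1.84 to 3.90) and 1.93 (1.56 to 2.36), and Tbx21 with Cxcr3 gave 1.76 (1.04 to 2.78) and 2.50 (2.03 to 3.06). The interval of each of these pairs lay above 1 in both libraries. Eomes, read in 26 WT and 70 KO-labelled thinned cells, was found with Ifng in 5 cells of each library, at 7.30 (2.37 to 17.0) and 1.92 (0.62 to 4.48) times the expected number. Eomes with Cxcr3 gave 0.76 (0.09 to 2.75) and 1.0 (0.46 to 1.90). Runx3 showed no such pairing, with ratios from 0.70 to 1.79 in the WT and 0.85 to 1.17 in the KO-labelled library, and every one of its intervals over all cells held 1.

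**Figure D5:**
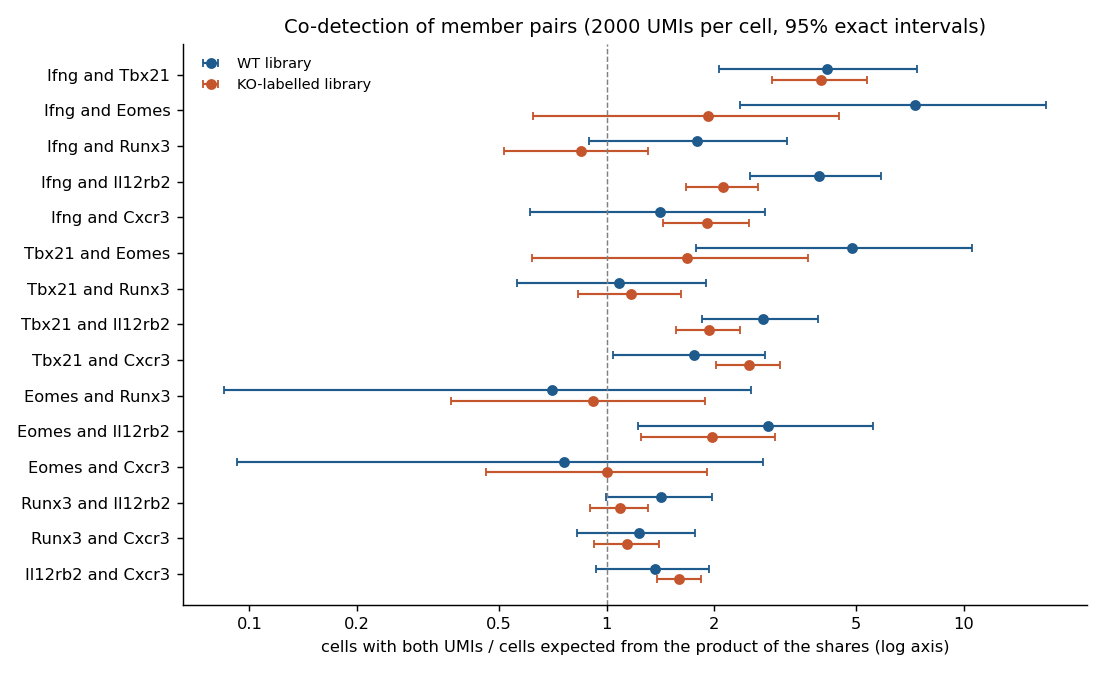
Cells with UMIs of both genes over the number expected from their shares (x axis, log scale, exact 95% intervals) for the 15 pairs of members (y axis), in thinned cells of the WT (blue) and KO-labelled (orange) libraries. Ifng and Tbx21 are at 4.13 and 4.0, pairs of Ifng or Tbx21 with Il12rb2 lie above 1, and all pairs with Runx3 have intervals that hold 1 (dashed line).

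Co-detection was lower within the Ly6c2+ groups than over all KO-labelled cells, by values that were not tested against each other. Within KO-labelled Cd27+Ly6c2+ cells the ratio of Ifng with Tbx21 was 2.28 (1.21 to 3.90), and within Cd27-Ly6c2+ cells 1.66 (0.91 to 2.79). Within Cd27+Ly6c2- and Cd27-Ly6c2- cells it was 7.10 (3.40 to 13.1) and 5.08 (2.04 to 10.46), from 10 and 7 cells with both. Ifng with Il12rb2 gave 1.64 (1.16 to 2.25) and 1.05 (0.65 to 1.61) in the KO-labelled Ly6c2+ groups. Tbx21 with Cxcr3 gave 3.21 (2.10 to 4.70) in Cd27+Ly6c2- and 2.79 (1.56 to 4.60) in Cd27-Ly6c2- cells. Pairs with Ifng and Tbx21 were thus also found beyond expectation among the KO-labelled cells in which no Ly6c2 was read.

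Few cells carried several members at once. At 2000 UMIs per cell, 68.8% (66.8% to 70.8%) of WT and 62.1% (60.8% to 63.3%) of KO-labelled cells had no member UMI, and 1.41% and 2.07% had UMIs of 3 or more. Cells with 3 or more members made up 3.47% and 5.83% of the WT Ly6c2+ groups, with and without Cd27, and 5.87% and 6.59% of the KO-labelled ones. In the groups without Ly6c2 they made up 1.40% and 0.421% of WT and 0.760% and 0.448% of KO-labelled cells. The highest number of members in a cell was 4 in the WT and 5 in the KO-labelled library. Ifng, Tbx21, Il12rb2 and Cxcr3 were all read in 8 KO-labelled cells and in 0 of 2125 WT cells. Ifng UMIs were concentrated: the 10 cells with most held 37.6% of the 194 WT UMIs and 16.8% of the 632 KO-labelled UMIs, with up to 19 and 20 UMIs in 1 cell. In WT Cd27-Ly6c2+ cells the 10 highest cells held 77.3% of the 66 Ifng UMIs, which came from 22 cells.

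Ifng and Il17a, the cytokines of the opposing programs, were rarely read in the same cell. In the WT library, 1 cell carried both where 9.51 were expected from the shares, a ratio of 0.105 (0.00266 to 0.586). In the KO-labelled library 2 cells carried both where 3.50 were expected, and the interval of that ratio, 0.0693 to 2.07, held 1. Tbx21 with Il17a gave 0.641 (0.320 to 1.15) in WT cells and Cxcr3 with Il17a gave 0.657 (0.421 to 0.978), with 11 and 24 cells carrying both. Il17a itself was read in 17.0% of WT and 1.62% of KO-labelled thinned cells.

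The pathway around the members was followed through 41 genes: 9 receptor genes, 7 signalling genes, 8 regulators and 17 effector and surface genes. Between the libraries, 0 of the 40 with enough UMIs were at least 2-fold higher and 8 at least 2-fold lower in the KO-labelled library, with a median log2 ratio of -0.24 against 0.02 over all genes, of which 2.94% were higher and 7.09% lower. The myeloid list stood at 782 CPM in the WT and 257 CPM in the KO-labelled library and the NK and ILC1 list at 43.9 and 24.6 CPM, and their part in these counts was not tested. The lowest were Gzma, a granzyme, at -2.52 (1313 and 2603 UMIs), Zeb2, a regulator of terminal effector cells, at -2.47 (209 and 401 UMIs), and Klrk1, which encodes the activating receptor NKG2D, at -2.18 (882 and 1381 UMIs). The 7 signalling genes, among them Stat4 and Jak2, held none past 2-fold. In WT Tcrg-V4-only over Tcrg-V6-only cells, 8 of 36 were at least 2-fold higher and 7 lower, with a median of -0.25 against 0.01 over all genes, of which 5.29% were higher and 5.15% lower. Gzma had 327 and 1 UMIs, Fasl, the death ligand, had 44 and 2, and Ccl5, a chemokine, had 4434 and 619. The lowest were Il12rb1, the constant chain of the IL-12 and IL-23 receptors, with 7 and 67 UMIs, the repressor Prdm1 with 3 and 28, and the chemokine receptor Cxcr6 with 358 and 2430. The 2 chains of the IL-12 receptor were thus on opposite sides, Il12rb2 with Tcrg-V4 and Il12rb1 with Tcrg-V6.

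In Ly6c2+ over Ly6c2- cells with Cd27, 9 of 36 pathway genes were at least 2-fold higher and 4 lower in the WT library, with a median log2 ratio of 0.10 against -0.13 over all genes, of which 1.83% were higher and 3.82% lower. In the KO-labelled library 10 of 38 were higher and 2 lower, with a median of 0.17 against -0.08 over all genes, of which 1.24% were higher and 3.33% lower. All 9 of the WT genes and 8 of the 10 KO-labelled genes were of the effector group, of which 15 were counted in each library. The highest were Xcl1, a chemokine of cytotoxic lymphocytes, at 2.53 and 2.43, and Klrc1, an inhibitory NKG2 receptor, at 2.32 and 3.43. They were followed by Ccl4 at 1.85 in the WT and by Ccl5 at 2.25 in the KO-labelled library. Cxcr6 was lowest in both, at -1.99 and -1.25, followed by Ifngr2, a chain of the interferon-γ receptor, at -1.74 and -1.07. The Ly6c2+ cells, with more Ifng, thus had less transcript of this receptor chain. Of the 10 genes of the IL-17 side, 9 in the WT and 8 in the KO-labelled library were at least 2-fold lower in the Ly6c2+ cells, with medians of -2.20 and -1.70, beside 3.82% of all WT and 3.33% of all KO-labelled genes compared. The lowest were Sox13 (1 and 32 UMIs), Ccr6 (9 and 100 UMIs) and Maf (34 and 272 UMIs) in WT cells, and Ccr6 (1 and 89 UMIs), Il17a (6 and 203 UMIs) and Il1r1 (22 and 243 UMIs) in KO-labelled cells.

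The genes whose pattern was most like that of each member were sought over 19 cell groups, made by library, Tcrg-V class and Cd27 and Ly6c2, with Pearson's r of log2(CPM + 10) and 7589 genes of at least 300 UMIs. The groups share libraries, and r is given as a description. Il12rb2 was most like Klrd1 (r = 0.98), Nkg7 (r = 0.97) and Pde2a (r = 0.97). Ifng was most like Slamf7 (r = 0.93), Dusp2 (r = 0.91) and Xcl1 (r = 0.90), and Tbx21 was most like Sntb2 (r = 0.92), Pogk (r = 0.91) and Ifng itself (r = 0.89). Ifng was thus the one member among the 3 nearest genes of another. By Spearman's rho it was not among the 3 nearest genes of Tbx21, and no member was near another in this sense. Cxcr3 was nearest to B2m (r = 0.93), Atp5e (r = 0.91) and Pik3r1 (r = 0.90). Eomes and Runx3 varied least between the groups on the log2(CPM + 10) scale, where the added 10 damps low levels. Eomes itself stood at 0.568 CPM in WT Tcrg-V6-only Cd27-Ly6c2- and 38.1 CPM in KO-labelled Tcrg-V4-only Cd27+Ly6c2+ cells. Eomes was nearest to Dbf4 (r = 0.87), followed by Trf (r = 0.76) and 4930522L14Rik (r = 0.75). Runx3 was nearest to Atp6v1a (r = 0.87), and Txndc5 (r = 0.84) was also among its nearest genes.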

How the data were processed

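Per the labels and the file headers, the authors made the deposited count tables with Cell Ranger (7.0 in the submitters' notes, 7.0.0 in the headers) on mm10, as UMI counts per gene and cell barcode. The study's methods name another release and a V(D)J kit, the labels a 3′ kit, so the chemistry is unsettled. Here, cells with over 200 and under 4000 genes and under 10% mitochondrial UMIs were kept, 2505 of 2520 and 6634 of 6688 barcodes. Doublets were not called. As an alternative, cells with Tcrg-V UMIs of 2 or more genes or in the top 5% of UMIs were left out. Shares used cells reduced to 2000 UMIs each, for which 380 WT and 828 KO-labelled cells were too shallow. Groups needed 50 cells and ratios 30 UMIs in all. Intervals were Clopper-Pearson (shares), exact Poisson and exact conditional (ratios), at 95%.

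Members and lists were chosen with earlier results of these data known. Named were the members, the group-defining genes, the 3 highest and 3 lowest list genes past 2-fold per comparison and the 3 nearest genes per member. A gene that this rule named is not reported here. Ly6c2 within Cd27- cells, both δ chain comparisons and the exclusion of NK transcripts were added after seeing the data. Analyses used Python 3.11.15 with numpy 2.4.6, scipy 1.17.1, pandas 2.3.3 and matplotlib 3.10.9, and were tested on simulated data.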

Additional observations from a re-analysis of the deposited data

Results flagged for a closer look

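Among cells without Ly6c2, the log2 ratio of Ifng in Cd27+ over Cd27- cells had opposite signs in the libraries, 0.1018 in the WT and -1.102 in the KO-labelled library. The difference between the libraries was not tested. The WT value rested on 16 and 32 UMIs. Without cells carrying an NK or ILC1 transcript it was -1.32, on the same side as the KO-labelled value but from fewer UMIs still.

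Runx3 was read in 20.97% of the WT cells with B or myeloid UMIs and no T cell UMI, close to the 20.6% of the other WT cells. These cells were kept in the groups of the report, except where cells with at least 5 B or myeloid UMIs were left out.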

How the results depend on the processing

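No paired analysis was possible because there was only 1 library per group, and leaving out a replicate was not possible for the same reason. Of 1038 single values under the alternatives, 827 stayed close to the reported value, 211 moved and 0 reversed among called values. Of 118 counts, 92 stayed within 1.5 times and 26 moved. The counts that moved are given here as members past 2-fold, and their causes were not tested. KO-labelled over WT in all cells, 0 members became 1 among cells with Xist and no Y-linked UMI. For Tcrg-V1-only over WT Tcrg-V4-only cells, 2 became 1 without likely doublets, among low-stress cells and without NK transcripts. For Cd27 in KO-labelled cells, 1 became 0 without likely doublets, with groups from thinned UMIs, among low-stress cells and among Xist cells. For Ly6c2 in WT Cd27+ cells, 5 became 3 with at least 2 UMIs to be positive and among low-stress cells. Between the libraries, Cd27+Ly6c2+ cells went from 0 to 1 without B or myeloid UMIs, without doublets, at 2 UMIs, without mitochondrial and ribosomal genes and among Xist cells. Cd27+Ly6c2- cells went from 1 to 2 with thinned groups, and to 3 among Xist cells and without NK transcripts. Cd27-Ly6c2+ cells went from 0 to 1 with thinned groups, at 2 UMIs and without NK transcripts, and to 2 among Xist cells. Cd27-Ly6c2- cells went from 2 to 0 among low-stress cells and to 1 among Xist cells. Without thinning, 6 rather than 3 members had separate intervals between WT Cd27+ cells with and without Ly6c2. With Spearman's rho, 8 of the 18 nearest genes were kept.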
